A study of Mus musculus with 4 samples.

Results

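Flag-Sp5 peaks were described at 5 genes of the primitive streak and early mesoderm, T (Brachyury), Tbx6, Mesp1, Eomes and Mixl1. Members were all listed peaks whose midpoint fell in a preset window of 104 to 113 kb around each gene on mm9, and they numbered 14 of the 9428 peaks in the list. Eomes held 6 of them, T held 5, Mesp1 held 2, Mixl1 held 1 and Tbx6 held none. The windows were set by gene position and not by any value of the peaks. Genes and windows were, however, chosen with earlier results of these data known.

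Sp5 is a zinc-finger factor of the SP/KLF family whose gene responds to Wnt signalling. In this experiment it carried a Flag tag and was switched on by doxycycline in A2Lox.cre embryonic stem cells, an engineered mouse line for inducible expression. The cells grew as embryoid bodies, received doxycycline from day 2 for 24 h and were harvested on day 3. The 4 libraries were 2 Flag immunoprecipitations with M2 antibody and 2 inputs without antibody, and the labels give induction of Flag-Sp5 for all 4. The titles of the immunoprecipitations name Flag-Sp5, while those of the inputs read Flag ESC and do not name Sp5. No immunoprecipitation from cells lacking the tagged protein was among the libraries, so antibody background and binding cannot be told apart. The deposited list gives only the position of each peak, without height, score or library, so no value below has a replicate error and no test between libraries was possible. Expression was not measured in these files, and whether the cells expressed streak genes could not be checked.

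The primitive streak is the region of the gastrulating embryo where epiblast cells leave the epithelium to form mesoderm and endoderm, and Wnt and Nodal signals are needed to form it. T is a T-box factor required for posterior mesoderm and notochord and is a classical Wnt target. Eomes, also a T-box factor, is needed for the exit of mesoderm and for definitive endoderm. Mixl1 is a homeobox factor of the streak that takes part in mesoderm and endoderm patterning. Mesp1 is a basic helix-loop-helix factor expressed for a short time in the earliest mesoderm, including the precursors of the heart. Tbx6 is a T-box factor that directs cells to paraxial mesoderm rather than neural tissue.

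SP/KLF factors are known to bind GC-rich elements, and the bases just before the start of each gene were read for such elements. No mm9 genome was used here, so the letters under the peaks were not read. RefSeq promoters on GRCm38.p6 matched 4 of the 5 genes by symbol, all but Mixl1. Their 250 bases before the start are shown to let T, with 2 GC boxes, be set beside the other genes. Coordinates of GRCm38.p6 cannot be compared with the mm9 positions of the peaks, so no peak was placed on these sequences. They read 5′ to 3′ in the direction of the gene, and capitals mark motif matches.
T, chr17:8434173-8434422, plus strand: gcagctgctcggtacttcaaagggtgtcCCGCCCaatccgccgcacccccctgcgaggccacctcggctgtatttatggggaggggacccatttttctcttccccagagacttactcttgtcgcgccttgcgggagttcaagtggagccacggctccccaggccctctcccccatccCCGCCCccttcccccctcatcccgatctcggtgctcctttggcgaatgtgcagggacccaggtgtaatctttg
Eomes, chr9:118477939-118478188, plus strand: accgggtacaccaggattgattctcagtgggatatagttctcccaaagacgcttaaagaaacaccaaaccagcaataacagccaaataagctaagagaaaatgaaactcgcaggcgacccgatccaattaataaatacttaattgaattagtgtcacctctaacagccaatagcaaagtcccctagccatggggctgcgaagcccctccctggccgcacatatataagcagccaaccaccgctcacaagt
Mesp1, chr7:79793591-79793840, minus strand: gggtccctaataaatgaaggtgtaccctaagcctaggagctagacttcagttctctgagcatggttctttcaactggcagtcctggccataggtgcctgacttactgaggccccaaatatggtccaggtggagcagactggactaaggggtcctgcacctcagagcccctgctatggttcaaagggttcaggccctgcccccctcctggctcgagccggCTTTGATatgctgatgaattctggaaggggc
Tbx6, chr7:126781233-126781482, plus strand: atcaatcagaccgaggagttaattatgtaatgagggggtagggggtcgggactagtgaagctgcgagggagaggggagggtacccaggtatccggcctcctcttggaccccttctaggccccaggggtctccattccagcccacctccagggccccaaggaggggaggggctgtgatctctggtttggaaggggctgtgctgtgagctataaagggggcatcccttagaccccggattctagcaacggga

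The motifs searched, on both strands, were the GC box GGGCGG, the GT box GGGTGTGGC, the CACCC box CACACCC, the TCF/LEF element CTTTGAT and the T-box element TCACACCT. The GT box holds the CACCC box read on the other strand, and the T-box element shares CACACC with it. Each motif was searched as this exact word, so variant forms of these elements were not counted. The T promoter held the GC box 2 times, both on the minus strand, at bases 222 to 217 and 73 to 68 before the start. A GC box was present in 32.7% of 32817 RefSeq promoters of the same length. The Mesp1 promoter held 1 TCF/LEF element on the plus strand, 31 to 25 bases before the start, and 3.21% of all promoters held one. The GT box, the CACCC box and the T-box element had no match in any of the 4 sequences, and 1.22%, 6.93% and 1.12% of all promoters held them. The Eomes and Tbx6 promoters matched none of the 5 motifs. GC content was 62.8% for T, 59.6% for Tbx6, 55.2% for Mesp1 and 46.4% for Eomes, against a median of 52.4% over all promoters. These matches describe the letters and were not tested as binding sites.

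The Eomes window, chr9:118337000-118450000, held the most peaks. The 6 peaks ran from 118371932 to 118397757, with midpoints spread over 25.7 kb. The first covered 118371932 to 118372072 and was 141 bp wide, the smallest width in the whole list. The next covered 118377365 to 118377592 (228 bp), and the third covered 118380558 to 118380740 (183 bp). These 3 peaks lay 12.9 to 21.5 kb below the centre of the window, towards lower coordinates. The fourth, at 118387812 to 118387958, was 147 bp wide and lay 5.62 kb below the centre. The fifth covered 118395975 to 118396308 and was the widest of the locus at 334 bp. Only 9.32% of the peaks in the list were that wide or wider. The last peak, 118397617 to 118397757, was again 141 bp wide and stood 1.55 kb from the fifth, the closest pair among all 14 peaks. Going along the chromosome, the steps between midpoints were 5.48, 3.17, 7.24, 8.26 and 1.55 kb. The Eomes peaks thus formed a single compact group, with a wide peak flanked by narrow ones near the middle of the window.

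Beyond this group the chromosome was sparse on the side of higher coordinates. From the last Eomes peak the next listed peak was 901 kb away, and 6.87% of the 9408 intervals between neighbouring peaks in the list were that long or longer. On the other side the next peak, at 118299087 to 118299294, stood 72.8 kb from the first, against a median interval of 114 kb in the list. Within 25 kb either side of the centre there were 6 peaks, and widening to 1000 kb either side brought in only 3 more, for a total of 9. The mean density of chromosome 9 would give 0.202 and 8.10 peaks for these distances.

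The T window, chr17:8577000-8685000, held 5 peaks, and all 5 lay below the centre. The outermost covered 8581977 to 8582272 and was 296 bp wide, 48.9 kb from the centre. The next ones covered 8589306 to 8589460 (155 bp) and 8601527 to 8601746 (220 bp). A 145 bp peak at 8622476 to 8622620 lay 8.45 kb from the centre. The fifth, at 8626770 to 8627173, measured 404 bp and was the widest of all 14 peaks, 4.03 kb from the centre. Only 4.39% of the peaks in the list were as wide. The T peaks were spread over 44.8 kb, with steps of 7.26, 12.3, 20.9 and 4.42 kb, a looser array than at Eomes. The side of the window with higher coordinates was empty, and the next peak on that side came 225 kb after the fifth. On the lower side another peak, 8564706 to 8564933 and 228 bp wide, fell 12.2 kb outside the window and 17.3 kb from the first member. It is the nearest peak outside any of the 5 windows, while the first T peak, 5.12 kb inside the edge, is the member closest to one.

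**Figure D1:**
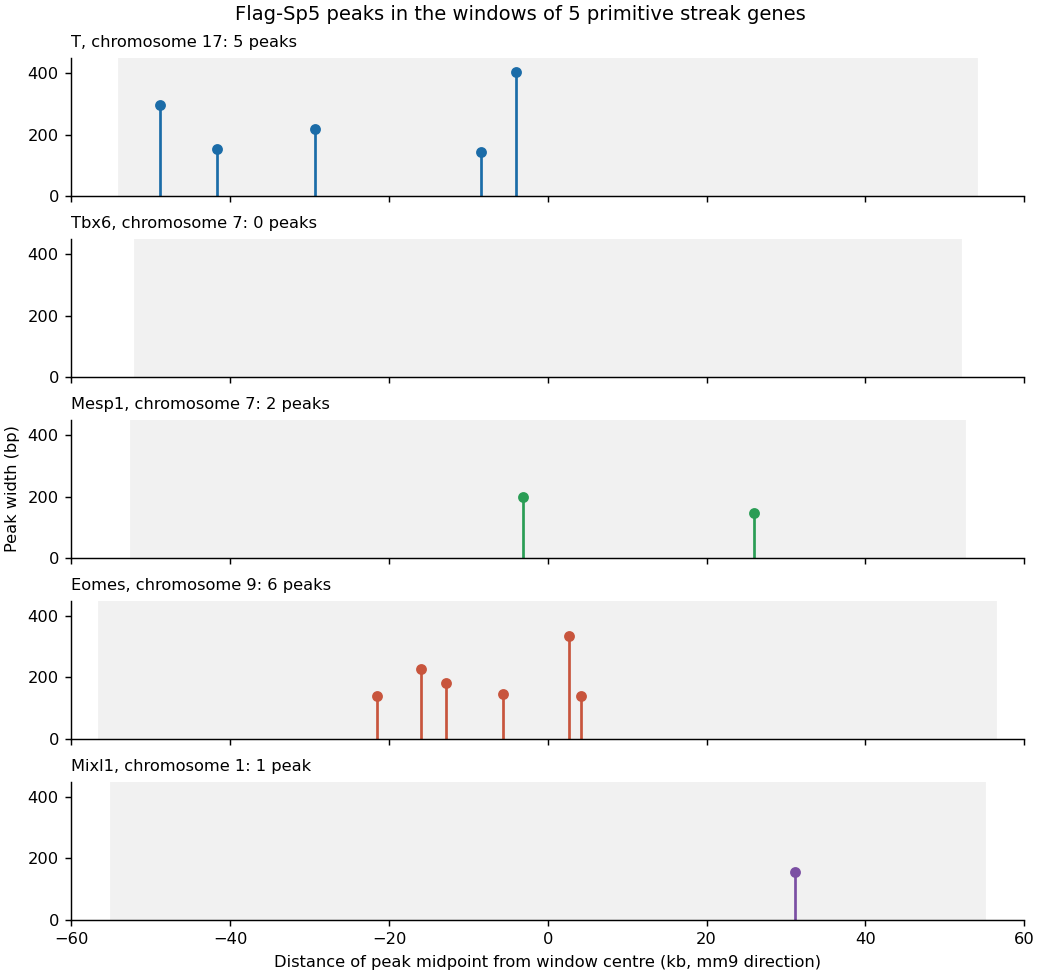
Peaks in the 5 windows, shown as stems at the distance of the peak midpoint from the window centre in kb (horizontal axis), with peak width in bp as height. Grey shading marks each window. The 5 T peaks all lie to the left of the centre, the 6 Eomes peaks lie within 21.5 kb of it, and the Tbx6 window is empty.

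Mesp1, in chr7:86885000-86990000, had 2 peaks. The one near the centre covered 86934322 to 86934521, was 200 bp wide and lay 3.08 kb below the centre. The other covered 86963345 to 86963492, was 148 bp wide and lay 25.9 kb above it. They stood 29.0 kb from each other, and the next peaks outward were 187 kb and 257 kb away. Mesp1 therefore carried a pair of separate peaks and no group.

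Mixl1, in chr1:182570000-182680000, had a single peak at 182656008 to 182656164. It was 157 bp wide, a width that 78.8% of the list reached or passed, and lay 31.1 kb above the centre. No peak was within 25 kb of the centre. Its nearest neighbour in the list was 160 kb away, the largest such distance among the 14 peaks.

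The Tbx6 window, chr7:133875000-133979000, had no listed peak. The peaks on either side covered 133838754 to 133838938 (185 bp, 36.2 kb outside the lower edge) and 134000699 to 134000863 (165 bp, 21.8 kb outside the upper edge). The stretch between them measured 162 kb. Stretches at least as long made up 34.4% of the 625 between neighbouring peaks on chromosome 7, so one of this length was common. The wider surroundings of Tbx6 were rich in peaks, with 23 within 1000 kb of the centre (95% exact Poisson interval 14.6 to 34.5) against 8.38 from the mean density of the chromosome. An absent entry in a thresholded list is not a measurement of no binding, and the depth of the libraries is not known from the list.

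Each count was set beside windows of the same size laid end to end on the same chromosome, as a description of how common such counts are. At Eomes, 0.373% of 1071 windows of 113 kb on chromosome 9 held at least 6 peaks (4 windows, of which 2 held more). At T, 0.83% of 843 windows of 108 kb on chromosome 17 held at least 5 (7 windows, of which 2 held more). Both counts were thus in the upper end of their chromosome. For Mesp1, 9.28% of 1422 windows on chromosome 7 held at least 2 peaks, and for Mixl1, 22.5% of 1753 windows on chromosome 1 held at least 1. A window without peaks, as at Tbx6, was the usual case, at 73.5% of 1435 windows on chromosome 7. The counts at Mixl1 and Tbx6 were therefore ordinary for their chromosomes. Windows laid end to end cover regions with few genes and can cut a group of peaks. When windows were instead centred on each peak of the chromosome, a comparison added after seeing the data, 6.33% held at least 6 peaks at the Eomes size and 7.37% held at least 5 at the T size. Such windows count a dense group once for each of its peaks, those of Eomes and T included, so these are not shares of separate groups. Among end-to-end windows that held any peak the shares were 1.22% and 2.64%.

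**Figure D2:**
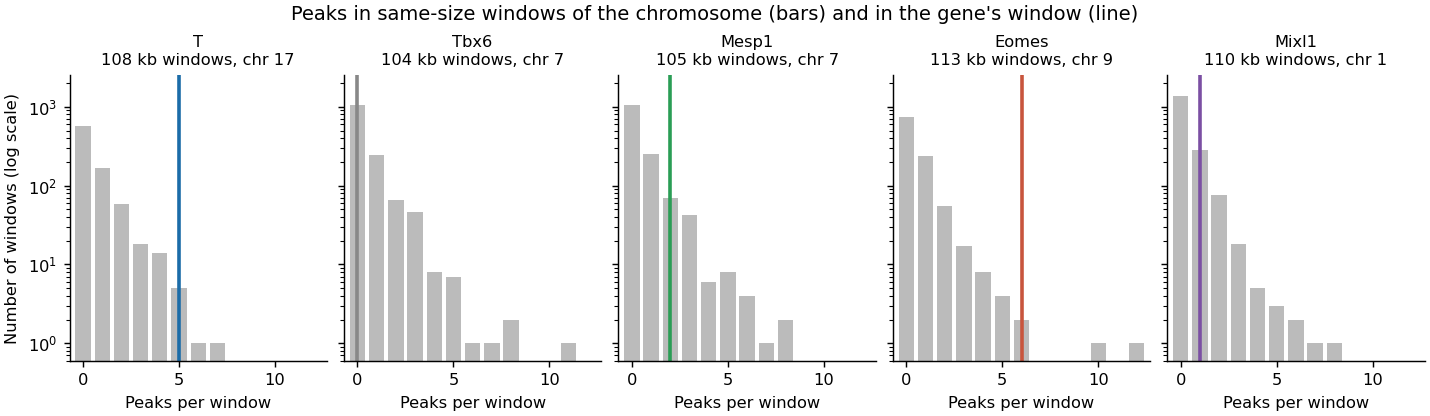
Number of end-to-end windows (vertical axis, log scale) by peaks per window (horizontal axis) on the chromosome of each gene, with the gene's own count as a coloured line. The lines of T (5) and Eomes (6) cross the sparse right-hand end of the bars, that of Tbx6 (0) the tallest bar.

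The densest window on chromosome 9 at this size, 3000143 to 3031734, held 12 peaks, and on chromosome 17 the densest held 7, at 23735993 to 23816806 and again at 66754706 to 66848426. On chromosome 7 a window of the Tbx6 size reached 12 peaks, from 20321045 to 20422833. One of the Mixl1 size on chromosome 1 reached 8, from 75313480 to 75396749 and, overlapping it, from 75337919 to 75444484. Neither T nor Eomes was thus the richest place on its chromosome in the list. The 12 peaks on chromosome 9 were kept in the shares and runs given here for that chromosome. Whether they mark binding was not tested.

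Runs of successive peaks gave the spacing the same kind of background, again chosen after seeing the data. Of 485 overlapping runs of 6 peaks on chromosome 9, 9 (1.86%) were no longer than the Eomes group, that group included. Overlapping runs can count a dense group several times. How many of the 9 lay in the stretch with 12 peaks on this chromosome was not counted. Of 430 runs of 5 on chromosome 17, 5 (1.16%) were no longer than the T array, itself included. For Mesp1, 32% of the 625 steps between neighbours on chromosome 7 were as short.

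Peak density at the loci followed the order Eomes, T, Mesp1, Mixl1 and Tbx6. It was 5.31 peaks per 100 kb at Eomes (95% exact Poisson interval 1.95 to 11.6), which was 13.1 times the mean of chromosome 9 (4.81 to 28.6). T had 4.63 per 100 kb (1.503 to 10.8), 9.72 times the mean of chromosome 17 (3.16 to 22.7). Mesp1 had 1.90 per 100 kb (0.231 to 6.88) and Mixl1 had 0.909 (0.0230 to 5.07), and their ratios to the chromosome mean of 4.54 (0.550 to 16.4) and 3.14 (0.0795 to 17.5) had intervals that included 1. The count of 0 at Tbx6 has an interval of 0 to 3.55 per 100 kb. The intervals of all 5 loci overlapped. Overlap does not decide whether counts this small differ, and the order among the loci was not tested. The intervals cover counting error of independent peaks only, and neighbouring peaks are not independent. Over all 5 windows, 540 kb in total, the 14 peaks came to 2.59 per 100 kb, against 0.368 over the whole list. T and Eomes together supplied 11 of the 14.

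Counts were also taken at growing distances from the window centre. Within 50 kb of it Eomes had 6 peaks against 0.405 from the chromosome mean, T had 5 against 0.476, Mesp1 had 2 against 0.419, Mixl1 had 1 against 0.289 and Tbx6 had none against 0.419. Within 1000 kb the counts at T, 11 (5.49 to 19.7) against 9.52, and Eomes, 9 (4.12 to 17.1) against 8.10, had intervals that included the number from the chromosome mean. At Mesp1 the 19 peaks (11.4 to 29.7) within 1000 kb stood against 8.38, at Mixl1 the 14 (7.65 to 23.5) against 5.79 and at Tbx6 the 23 against 8.38, and these intervals lay above the mean. Between 50 and 1000 kb the ratio to the mean fell at each step at Eomes (14.8 to 1.11) and T (10.5 to 1.15). At Mesp1 (4.77 to 2.27) and Mixl1 (3.46 to 2.42) it was lower at the end without a steady fall. It rose again at 250 kb, to 3.34 at Mesp1 and 4.15 at Mixl1. At Tbx6 the ratio went from 0 to 2.74. Nearer the centre the fall at T was not steady, with 21.0 within 10 kb and 8.40 within 25 kb. At Eomes these ratios were 37.1 and 29.6. Each wider count includes the narrower ones, so the steps are not independent. At 50 kb the intervals of the ratio at Mesp1 (0.578 to 17.2) and Mixl1 (0.0875 to 19.3) included 1. Differences between the loci in this respect were not tested.

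**Figure D3:**
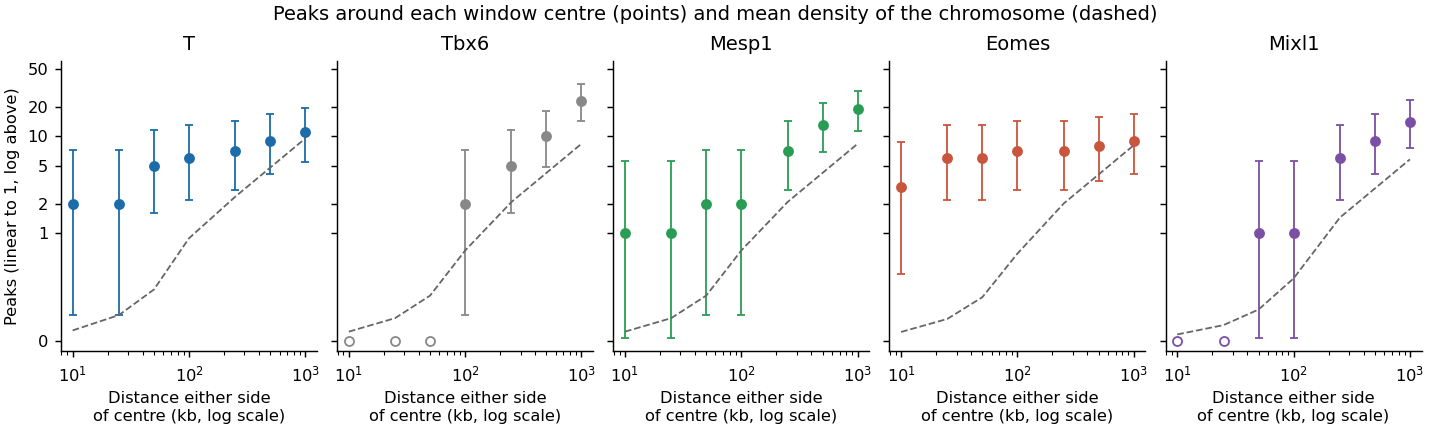
Peaks counted within a given distance either side of each window centre (horizontal axis in kb, log scale), with 95% exact Poisson intervals as bars and open symbols for counts of 0, which have no bar. The dashed line is the number that the mean density of the chromosome gives. At 1000 kb the line lies within the bars of T and Eomes and below those of Tbx6, Mesp1 and Mixl1.

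The widths of the 14 peaks ran from 141 to 404 bp. Their median was 170 bp, against 195 bp for all peaks, and 6 of the 14 were wider than the list median, where 49.6% of the list is. The 95% interval of that median from ranks, 145 to 296 bp, includes the list value. The smallest width of 141 bp occurred in 2 of the 14, both at Eomes, and in 7.18% of the list. Of the peaks wider than the list median, T had 3, Eomes 2 and Mesp1 1. In each of the 3 loci with more than 1 peak the widest peak was also the one nearest to the window centre, at 404 bp for T, 334 bp for Eomes and 200 bp for Mesp1. This was noticed after seeing the data, and 3 loci are too few to generalise from. Where each gene starts within its window on mm9 was not given in the sources used here, so distances to start sites are not stated.

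Close neighbours at the loci came from T and Eomes. A neighbour within 10 kb was found for 10 of the 14 peaks, and for 23.8% of all peaks. At the closer distance of 2 kb it was 2 of the 14, against 11.4% of all peaks, a share near that of the list. Within 10 kb, all 6 Eomes peaks and 4 of the 5 T peaks had a neighbour, and none at Mesp1 or Mixl1 did. The median distance to the nearest peak was 6.36 kb at the loci, with a range of 1.55 to 160 kb, and 46.9 kb over the list. Peaks of a group share their neighbours, so these 14 distances are not independent values.

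**Figure D4:**
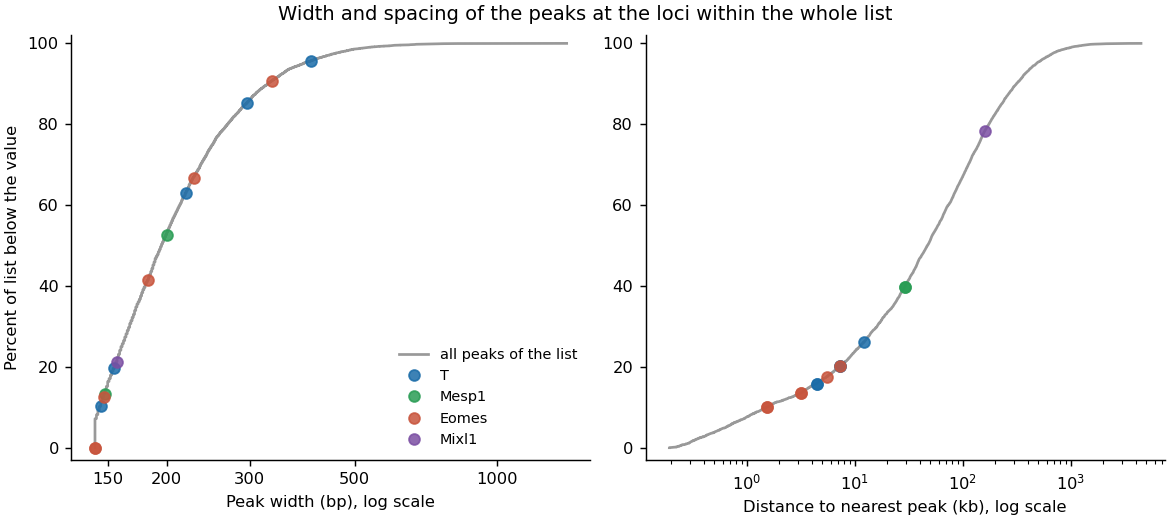
Peak width in bp (left) and distance to the nearest peak in kb (right), both on log axes, with the grey curve giving the percent of the whole list below each value and coloured points the peaks at T, Mesp1, Eomes and Mixl1. Widths are scattered along the curve from 141 to 404 bp, while 10 of the 14 distances fall below 10 kb.

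Each window can hold other genes, and no peak was assigned to one. In the GRCm38.p6 gene table, used for names only, the protein-coding genes next to T were T2 and LOC115486424 on one side and Pde10a and 1700010I14Rik on the other. Eomes stood between Cmc1 and LOC115486419 and, on the other side, Golga4 and Itga9. Mesp1 had Pex11a and Wdr93 on one side and, on the other, Mesp2, its paralogue in somite formation, followed by Anpep. A peak near Mesp1 could not be told apart from one near Mesp2 by these data. Mixl1 lay between Parp1 and Lin9 and, on the other side, Acbd3 and H3f3a. Tbx6 lay among the closely set genes Gdpd3, Ypel3, Ppp4c and Aldoa.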

How the data were processed

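Per the labels' protocols, chromatin was fixed for 15 min in 1% formaldehyde and sheared to 100 to 300 bp. The authors deposited 1 peak list with chromosome, start and end in bp (0-based starts, printed here 1-based). Coordinates are on mm9, and Bowtie, Picard, MACS2 and HOMER were used, per the submitters' processing notes. Their versions and roles, the threshold, the handling of replicates and the depth were not given in the sources used here. No cell of the list belongs to a single library.

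A peak was a member if its midpoint lay in a gene's window, and every such peak is named. The windows, members, motifs and comparisons were chosen with earlier results of these data known. Windows of the same size were laid end to end from the first to the last peak of the chromosome, and chromosome density was taken over that span. Intervals are at 95%. No chance test was run. Counting was tested on simulated lists. Python 3.11.15, NumPy 2.4.6, SciPy 1.17.1 and Matplotlib 3.10.9 were used.

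Promoter letters came from RefSeq by symbol. A planned list of other streak and Wnt genes could not be placed on mm9, and only 23 of its 31 genes had a promoter entry, a lower rate of matching than such a check requires, so it is void and its shares are not given. Distances to gene starts and motifs in peaks were not analysed here.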

Additional observations from a re-analysis of the deposited data

How the results depend on the processing

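Of 76 alternative values, 54 stayed within 1.5 times the reported count, the 95% Wilson interval of the reported share, or the 95% rank interval of the reported median, and 22 did not. The medians of width and spacing over the loci stayed within theirs throughout. Counting by overlap, merging peaks less than 500 bp apart and dropping peaks of the smallest width moved no count past 1.5 times. Dropping the smallest width left 4 peaks at Eomes, exactly at that limit, and 5 at T, so T then held the most. Taking 25 kb off each side left 2 peaks at T and 0 at Mixl1, and adding 50 kb on each side gave 2 at Tbx6. Peaks wider than the list median numbered 3 at T, 2 at Eomes, 1 at Mesp1 and 0 at Mixl1, so T again held the most. In that list, which holds fewer peaks, the shares of windows with as many were 3.57% for Eomes and 17.1% for Mesp1, and 83.6% of windows of the Tbx6 size were empty. For Mixl1 no share was computed there, since every window holds 0 or more. Merging gave a share of 0.356% for T. Windows on all chromosomes gave 27.1% for Mixl1. Among windows with at least 1 peak the shares were 2.64% for T, 1.22% for Eomes, 34.6% for Mesp1 and, by construction, 100% for Mixl1. In windows centred on each peak, added after seeing the data, they were 7.37%, 6.33%, 62.1% and again 100%. For the rest the cause was not tested. Leaving out each locus in turn left 8 to 14 peaks, with 8 without Eomes and 9 without T. No paired analysis was possible because single libraries cannot be read from the list, and no replicate could be left out. Depth and threshold are unknown, so an absent peak shows little, and counts of 6 or fewer limit every comparison between loci.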
